A study of Arabidopsis thaliana with 60 samples.

Results

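The 200 genes described here form a first-hour peak in Arabidopsis roots given auxin: their RNA rose within 1 h of treatment and had dropped again by 6 h. They were chosen from 32833 genes by their group means in the control arm, that is in plants pretreated with the solvent DMSO. On the scale log2(CPM + 1), where CPM is counts scaled to 1e6 counts on genes, a gene had to be at least 1 higher at 1 h than at 0 h and at least 1 lower at 6 h than it was at 1 h. Both conditions had to hold in both lines, with a mean of at least 5 CPM at 1 h in each. There were 204 such genes, and the 200 with the largest rise averaged over the lines were kept. All 200 also passed the filter on low counts used for the tests, in both lines.

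RNA was sequenced from root segments of 2 lines, with 3 libraries in each of 20 groups. Each line carries an auxin repressor under the promoter of GATA23, a gene switched on as lateral roots are founded. The repressor is shy2-2, a stabilised form of IAA3, in pGATA23::shy2-2-GR and slr-1, a stabilised form of IAA14, in pGATA23::slr-1-GR. In both it is fused to the glucocorticoid receptor (GR), so the fusion reaches the nucleus once dexamethasone (DEX) is given. All seedlings had 4 d of germination and a cycle of 16 h light and 8 h dark. They had 22 h on 10 µM of the auxin transport inhibitor NPA, then 2 h with 10 µM DEX or with DMSO added. After that came 10 µM of the auxin IAA for 0, 1, 2, 4 or 6 h. Segments of many seedlings were pooled per library, so the tissue holds far more cells than those that use the promoter. No group was kept without IAA beside the time course and no plants without a fusion received DEX, so a response to handling or to DEX alone cannot be told apart from one to auxin or to the repressor. The protocol text of the labels names 0, 2, 4 and 6 h of auxin, whereas 12 libraries are labelled 1 h.

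Auxin acts within minutes by bringing Aux/IAA repressors to the TIR1 and AFB receptors, which mark them for destruction and free the ARF transcription factors. Stabilised Aux/IAA proteins such as shy2-2 and slr-1 escape that destruction and keep ARFs silent. Many early auxin genes encode parts of a brake on the signal, such as the Aux/IAA repressors themselves and GH3 enzymes that conjugate auxin. Touch, wounding and transfer of seedlings also switch on many genes within an hour, among them calcium sensors and defence genes.

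The libraries held 12146529 to 94077078 counts on genes, with a median of 40286724. The root genes WOL, CASP1, SCR, SHV2 and EIR1 were above 1 CPM in 60 of 60 libraries. A list of 10 photosynthesis genes stood apart in 7 libraries, with a mean log2(CPM + 1) of 6.81 to 8.33 against 2.29 to 5.76 in the others. Of these 7, 3 were DEX libraries of 0 h (replicate 2 of shy2-2 and replicates 1 and 2 of slr-1), 3 were DMSO libraries of 2 h and 1 a DEX library of 4 h. The leaf identity genes YAB3 and AFO reached at most 2.14 and 1.98 CPM, with medians of 0. GATA23, whose promoter drives both fusions, averaged 20.45 ± 0.65 CPM (SD, n = 3) in DMSO and 0.78 ± 0.18 in DEX at 1 h in shy2-2. In slr-1 it averaged 29.82 ± 2.68 and 1.03 ± 0.29. The endogenous IAA3 (symbol SHY2) and IAA14 cannot be separated from their transgenes in these counts.

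The sequencing run of a library was read from the file names, which name 5 runs. In shy2-2, DEX 0, 2, 4 and 6 h came from one run and the same times of DMSO from another, while both arms of 1 h came from a run shared with DEX 0 h and 1 h of slr-1. In slr-1, DMSO 0 h shared one with DEX 2, 4 and 6 h, and DMSO 1 to 6 h shared another. Run and time therefore cannot be told apart in the first hour of shy2-2 or in any step from 1 h to a later time of DEX in either line. The same holds in DMSO for the first hour of slr-1 and for steps from 1 h to a later time in shy2-2. Some of these DMSO steps were used to choose the genes. By contrast, 0 h and 1 h of slr-1 in DEX lie within 1 run, as do 2 h and 4 h of DMSO in each line. The first-hour comparison between the lines sets steps against each other that cross runs in shy2-2 and not in slr-1.

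The values that chose the genes are given as a description. The rise in DMSO ran from 1.00 to 5.50 on the log2(CPM + 1) scale in shy2-2 with a median of 1.87, and from 1.01 to 5.41 with a median of 1.71 in slr-1. From 1 h to 6 h the medians changed by -1.54 and -1.59. Mean levels at 1 h spread from 5.52 to 961.45 CPM in shy2-2 and from 5.27 to 1002.47 CPM in slr-1, with medians of 32.04 and 32.06. Just inside the threshold on the rise were AT3G13600 at 1.002, SIGE at 1.012 and CYP707A3 at 1.014, and just outside AT1G35250 at 0.998, GT18 at 0.994 and GCH at 0.963. On the fall, HYH at 1.001, IAGLU at 1.005 and AT2G32140 at 1.007 were in, and HSP90.1 at 0.996, AT5G67350 at 0.989 and AT2G48080 at 0.985 were out. On the level at 1 h, ABCG40 at 5.27 CPM, CYP71A12 at 5.49 and AT1G44830 at 5.82 were in, and AT4G14368 at 4.97, DAR3 at 4.93 and AT1G52700 at 4.8 were out. The limit of 200 fell between UGT73B3, with a line-mean rise of 1.09, and AT5G37550, with 1.08. Genes just inside and just outside the rise and the fall were thus closer to each other than the median within-group SD of the members, which was 0.22 on this scale.

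**Figure D1:**
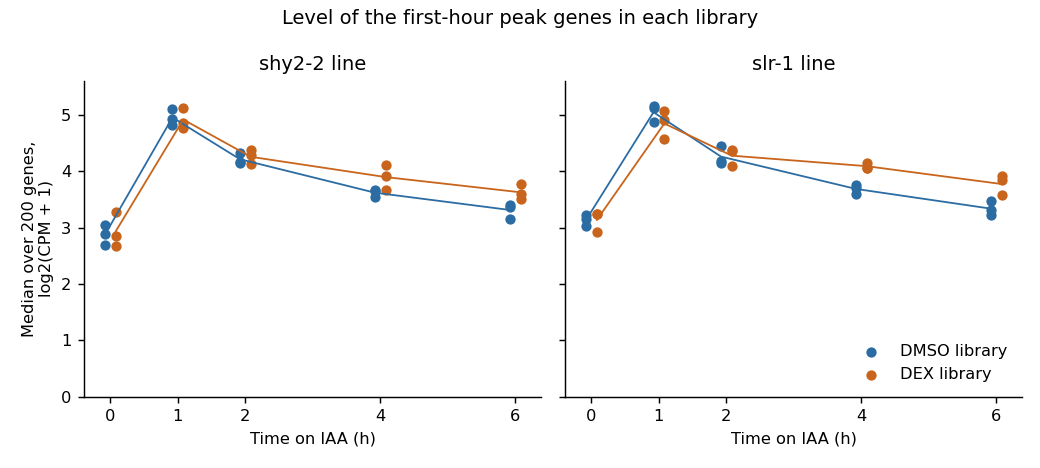
Median log2(CPM + 1) over the 200 genes in each library (points) against hours on IAA, with lines through the group means of 3 libraries, for the shy2-2 line on the left and slr-1 on the right, DMSO in blue and DEX in orange. The DMSO values at 0, 1 and 6 h follow from the choice of genes; the DEX libraries, which were not used, lie between 2.68 and 3.28 at 0 h and between 4.57 and 5.13 at 1 h.

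The DEX libraries played no part in the choice, and the same peak was measured in them. In shy2-2 the 1 h libraries of both arms shared a run that held no other time of that line. A difference of that run would enter both the choice and the DEX rise, and it was not tested. In slr-1, 0 h and 1 h of DEX lie within 1 run. In shy2-2 with DEX, 177 of the 200 genes rose from 0 h to 1 h, while 15.4% of the 21902 genes tested rose. In slr-1 with DEX, 172 rose, while 13% of 21864 tested genes did. The fold lay above 0 for 198 members in each line. The median fold change of the 200 was 1.93 (log2) in shy2-2 and 1.68 in slr-1, against -0.03 and 0.01 for all genes tested. These calls are edgeR quasi-likelihood tests with a Benjamini-Hochberg adjusted p under 0.05 over all genes of a contrast.

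A rise was called in both lines for 171 members, against 11.2% of the 21588 genes tested in both, in 1 line for 7 and in neither for 22. Without the 7 libraries high in photosynthetic RNA the counts were 172 in shy2-2 and 152 in slr-1, where the 1 library of DEX 0 h that remained was taken to vary like the other groups. In the contrast of slr-1, 9 of the 10 photosynthesis genes fell from 0 h to 1 h with a median of -3.02 (log2), and none passed in shy2-2, with a median of -1.78. All 3 libraries of DEX 1 h lay above all 3 of DEX 0 h for 178 members in shy2-2, against 19.8% of all genes tested, and for 170 in slr-1, against 16.3%.

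The return was measured in DEX as well. From 1 h to 6 h, 165 members fell in shy2-2, where 14.6% of all genes tested fell, and 159 fell in slr-1, where 16.3% did. The median changes were -1.36 and -1.18 (log2). In both lines 1 h and 6 h of DEX came from different runs. XTH20 and AT1G69150 rose instead in shy2-2, where 13.6% of genes rose. A fall was called in both lines for 153 members, against 10.7% of genes. The choice asked in DMSO for a rise and a fall of log2 1 each, with at least 5 CPM at 1 h. In DEX these conditions were met by 130 of the 200 members in shy2-2 and 103 in slr-1. Of all genes with at least 5 CPM at 1 h of DEX, 1.38% of 15559 and 0.888% of 15548 met them. The DEX group mean was highest at 1 h of the 5 times for 171 members in shy2-2 (20.2% of all genes) and 162 in slr-1 (16.4%).

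**Figure D2:**
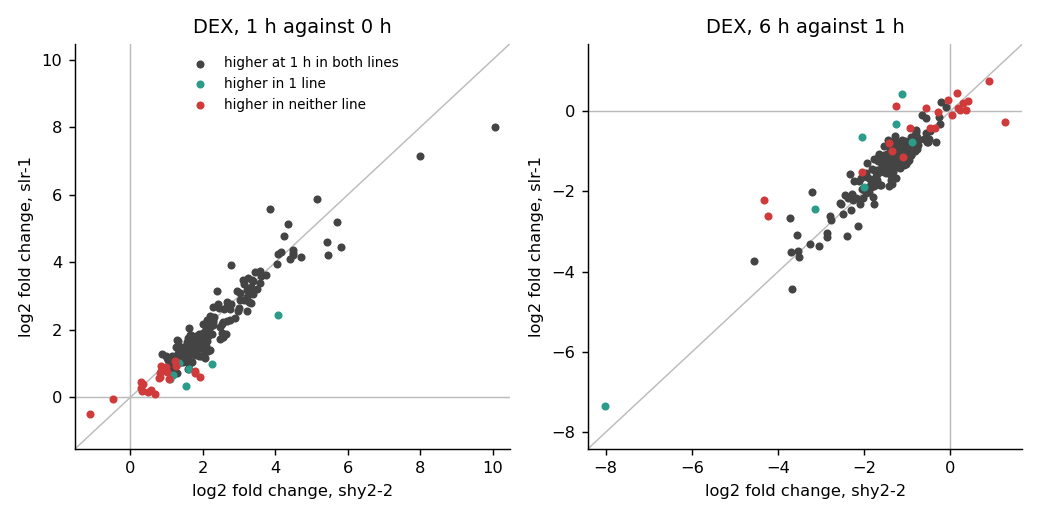
Fitted log2 fold change of each of the 200 genes in DEX, shy2-2 on the horizontal and slr-1 on the vertical axis, for 1 h against 0 h on the left and 6 h against 1 h on the right. Grey points are the 171 genes called higher at 1 h in both lines, green the 7 called in 1 line and red the 22 called in neither. The grey diagonal marks equal values, and most points follow it.

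The first-hour rise under DEX did not differ detectably between shy2-2 and slr-1 for any member. No member passed the edgeR test of the difference, and DESeq2 also called none. In edgeR 10 members had an unadjusted p under 0.05, against 737 of all 22268 genes tested. Among all 22268 genes tested, 0.0314% were called, each with the smaller response in shy2-2. The median difference of the members, shy2-2 less slr-1, was 0.20 (log2), against 0.0 for all genes tested. Of the 200 members, 148 had the larger value in shy2-2.

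GAD4 had the largest rise of the set. It encodes a glutamate decarboxylase, an enzyme that makes the amino acid GABA, and lies on chromosome 2 (474108 to 476997, minus strand, 6 exons; all positions are TAIR10.1). In shy2-2 with DEX its libraries held 0, 0.0847 and 0 CPM at 0 h and 51.4, 27.2 and 52.5 CPM at 1 h. In slr-1 with DEX they held 0.0777, 0.477 and 0.0181 CPM at 0 h and 29.9, 29.8 and 44.0 at 1 h. The groups did not overlap in either line. Only 3 counts lay behind the 0 h value of shy2-2, so the ratio of pooled CPM of 1187 has a 95% interval, for counting error alone, of 406 to 5759. In slr-1 the ratio was 259, with an interval of 151 to 486. GAD4 then stayed at an intermediate level: it held 14.0, 27.1 and 22.2 CPM at 2 h and still 13.8, 18.8 and 10.7 at 6 h in shy2-2 with DEX.

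IAA6 was the sole member among 29 Aux/IAA genes, although 22 of the 28 tested rose in the first hour of DEX in shy2-2 and 23 in slr-1. The gene is on chromosome 1 (19672476 to 19673652, minus strand) and encodes an Aux/IAA repressor of the kind that the study's fusions are built from. Its libraries held 0.149, 0.0565 and 0 CPM at 0 h in shy2-2 with DEX and 15, 13.1 and 22.4 at 1 h. In slr-1 with DEX the values were 0.0389, 0.239 and 0.145 CPM and then 20.7, 14.1 and 23.5. The groups lay far apart in both lines. The ratio of pooled CPM was 269 (95% counting interval 115 to 828, from 5 counts at 0 h) in shy2-2 and 142 (84.4 to 260) in slr-1. At 2 h of DEX in shy2-2, IAA6 still held 14.9, 15.4 and 18.9 CPM, which overlaps 1 h, and at 6 h it held 3.6, 4.17 and 3.6, below all of 1 h. That change from 1 h to 6 h was -2.15 ± 0.34 (log2 ± SE, n = 3, edgeR adjusted p = 7.5e-05) in shy2-2 and -2.86 ± 0.26 (1.7e-08) in slr-1. In the DMSO arm IAA6 fell between 2 h and 4 h by 1.44 ± 0.33 (0.0065) and by 1.93 ± 0.24 (7.5e-06).

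From 1 h to 6 h of DEX, 7 of the 28 Aux/IAA genes fell in shy2-2 and 8 in slr-1, IAA6 included, against 14.6% and 16.3% of all genes. In the same contrast 4 and 7 rose, and the medians were -0.08 and -0.01 (log2). No GH3 gene was among the 200, though 5 of 6 tested rose and 1 fell in the first hour of DEX in each line. GH3 medians were 3.97 and 4.22 at 1 h against 0 h and -0.03 and -0.15 at 6 h against 1 h. Of 80 SAUR genes, small early auxin genes linked to growth, none was a member, although 17 of 59 tested rose and 9 fell in shy2-2, and 15 of 55 rose and 8 fell in slr-1. Other hormone enzymes were among the members, such as IAGLU and GA2OX8. IAGLU encodes a glucosyltransferase that acts on auxin, and GA2OX8 a gibberellin-inactivating enzyme.

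GA2OX8 lies on chromosome 4 (11302682 to 11306770, plus strand). In slr-1 with DEX its libraries held 1.28, 2.39 and 1.43 CPM at 0 h, 44.9, 38.1 and 51.8 at 1 h, 25, 23.9 and 26.4 at 2 h. At 4 h they held 17.5, 15.1 and 12.3 CPM, and at 6 h 18.1, 17.8 and 19.7. The 1 h libraries lay above all others. The rise was 4.79 ± 0.20 (log2, adjusted p = 2.5e-14), and that of shy2-2 was 4.25 ± 0.32 (4.7e-10). Its 4 h and 6 h libraries lay above all of 0 h.

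Of the 12 ACC synthase genes, which encode the rate-limiting step of ethylene synthesis, 2 were members. ACS6 is on chromosome 4 (6863979 to 6866116, plus strand) and ACS11 on the same chromosome (4886962 to 4889224, plus strand). ACS11 held 9.0, 6.30 and 9.82 CPM at 0 h of DEX in shy2-2 and 93.8, 107.9 and 94.6 at 1 h. It stayed at 83.3, 79.1 and 80.7 CPM at 2 h and was at 34.8, 24.7 and 43.1 at 6 h. The 1 h and 6 h libraries did not overlap, and the fall between them was 1.53 ± 0.28 (log2, adjusted p = 0.00029).

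ACS6 differed between DEX and DMSO at 2 h in slr-1. Its libraries there held 56.0, 120.3 and 62.9 CPM in DMSO and 37.8, 35.7 and 28.5 in DEX, a difference of -1.22 ± 0.24 (log2, adjusted p = 0.0065). These arms came from different runs, and DMSO replicates 1 and 3 were high in photosynthetic RNA. In shy2-2 at 2 h the values were 44.7, 42.9 and 48.4 CPM in DMSO and 24.8, 31.1 and 50.2 in DEX, which overlap, with a difference of -0.38 ± 0.36 (1.0). Its change from 1 h to 6 h of DEX passed in neither line, at -0.48 ± 0.36 (0.34) and -0.49 ± 0.24 (0.13).

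Sequence upstream of 6 members is shown because their levels carry the account of auxin, ethylene, wall, clock and defence genes, and because each holds a short motif known from one of those responses. The motifs searched were TGTCTC (auxin response element), CGCGTT (core of the rapid stress response element), CACGTG (G-box) and GTTGAC (W-box with its flanking G), among 9 in all, on both strands within 250 bases before the gene start. The sequences are from RefSeq's TAIR10.1 genome, on the strand of the gene, 5′ to 3′, 120 bases each, with 1 motif in capitals, as TGTCTC in IAA6, ACS6 and ACS11, the reverse complement of CGCGTT in XTH18, CACGTG in PRR9 and GTTGAC in NUDT7. The stretch of IAA6 also holds GTTGAC and that of ACS11 TGTCGG, both left in lower case.
IAA6, chr1:19673768-19673887, minus strand: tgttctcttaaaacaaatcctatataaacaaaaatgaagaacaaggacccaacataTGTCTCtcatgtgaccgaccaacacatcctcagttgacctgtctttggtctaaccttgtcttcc
ACS6, chr4:6863739-6863858, plus strand: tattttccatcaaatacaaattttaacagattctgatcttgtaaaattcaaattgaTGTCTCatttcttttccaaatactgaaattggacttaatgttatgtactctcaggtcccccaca
ACS11, chr4:4886842-4886961, plus strand: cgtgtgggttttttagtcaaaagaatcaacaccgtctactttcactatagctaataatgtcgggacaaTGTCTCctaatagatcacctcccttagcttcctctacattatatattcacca
XTH18, chr4:14827224-14827343, minus strand: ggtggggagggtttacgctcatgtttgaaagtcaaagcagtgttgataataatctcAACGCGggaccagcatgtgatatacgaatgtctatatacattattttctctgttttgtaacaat
PRR9, chr2:19232357-19232476, plus strand: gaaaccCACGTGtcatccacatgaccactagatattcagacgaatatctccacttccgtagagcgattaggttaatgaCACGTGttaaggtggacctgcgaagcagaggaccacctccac
NUDT7, chr4:7487097-7487216, plus strand: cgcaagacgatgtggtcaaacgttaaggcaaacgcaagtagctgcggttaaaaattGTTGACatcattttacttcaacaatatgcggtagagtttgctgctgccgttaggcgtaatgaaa

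Among the 199 protein-coding members TGTCTC was found upstream of 11.6%, against 10.8% of 20709 protein-coding genes tested in both lines. The W-box form GTTGAC was found upstream of 17.6% against 11.6%, CGCGTT of 5.0% against 2.8% and CACGTG of 8.5% against 7.2%. GAANNTTC, a heat shock element core, was found upstream of 16.6% against 9.4%. The auxin element variant TGTCGG (5.5% against 4.5%), TGACGT, bound by TGA factors (9.5% against 7.9%), GCCGCC (2.5% against 1.9%) and the evening-element-like AAAATATC (5.5% against 6.0%) make up the 9. The shares describe the letters of these windows only.

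Wall enzymes of the XTH family, which cut and rejoin xyloglucan, gave 4 members of 33 genes: XTH17, XTH18, XTH19 and XTH20. Of the 29 tested, 4 rose and 8 fell in the first hour of DEX in shy2-2, and 5 rose and 12 fell in slr-1. Among all genes 15.4% rose and 11.5% fell in shy2-2, and 13% rose and 11.1% fell in slr-1. XTH18 lies on chromosome 4 (14825757 to 14827211, minus strand) beside XTH19 on the same strand (14828712 to 14830224). XTH18 held 20.8, 33.3 and 32.3 CPM at 0 h of DEX in slr-1 and 232.9, 207.4 and 278.9 at 1 h. It then held 136.2, 135.3 and 107.7 CPM at 2 h, 62.5, 48.3 and 55.4 at 4 h and, at 6 h, 23.8, 23.4 and 27. No 2 neighbouring times overlapped, and by 6 h the libraries lay within the 0 h range. The rise was 3.09 ± 0.17 (log2, adjusted p = 7.7e-13) and the fall from 1 h to 6 h was 3.30 ± 0.17 (3.1e-12). These genes are close copies, so reads that map to more than 1 of them may be split or lost.

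XTH17 (chromosome 1, 24257054 to 24258506, plus strand) fell below its start. In slr-1 with DMSO its libraries held 18.2, 15.1 and 22.6 CPM at 0 h, 55.5, 75.8 and 62.6 at 1 h and, at 2 h, 13, 15.6 and 15.2. At 4 h they held 0.242, 0.107 and 0.705 CPM, a drop from 2 h of 5.27 ± 0.51 on the log2 scale (adjusted p = 3.5e-07). The same drop in shy2-2 was 5.12 ± 0.69 (4.9e-05). With DEX the 6 h libraries held 0.0316 to 0.379 CPM in shy2-2 and 0.0627 to 0.376 in slr-1, so every library was under 1 CPM by then.

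XTH20 (chromosome 5, 19481897 to 19483527, plus strand) differed in its later course between DMSO and DEX in shy2-2. Its DMSO libraries fell between 2 h and 4 h from 27.1, 19.1 and 20.1 CPM to 5.68, 4.43 and 4.51 in shy2-2, a change of -2.17 ± 0.47 (log2, adjusted p = 0.0043). In DEX of shy2-2 they held 11.8, 14.6 and 12.7 CPM at 2 h, 15.8, 29.3 and 11.6 at 4 h and, at 6 h, 19.6, 49.2 and 13.2, and the rise from 1 h to 6 h was called at 1.28 ± 0.46 (0.04). At 4 h XTH20 was 1.94 ± 0.47 (0.0077) higher in DEX than DMSO in shy2-2, and 0.83 ± 0.41 (0.19) in slr-1. In slr-1 with DEX its libraries held 6.18, 9.67 and 8.68 CPM at 4 h and 4.54, 13.9 and 17.3 at 6 h, which overlap. Its first-hour change under DEX passed in neither line, at 0.85 ± 0.47 (0.19) and 0.94 ± 0.41 (0.10).

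TCH3 (chromosome 2, 17137037 to 17139700, plus strand) encodes a calmodulin-like calcium sensor known as a touch gene, and was the one member among 14 genes of that list, of which 8 rose and 3 fell in shy2-2 in the first hour of DEX, and 9 rose and 2 fell in slr-1. It held 79.4, 72.1 and 46.0 CPM at 0 h of DEX in slr-1 and 680.7, 939.4 and 762.5 at 1 h. The values at 6 h, 499.4, 363.3 and 307.8 CPM, lay below all of 1 h and above all of 0 h. The rise was 3.62 ± 0.27 (log2, adjusted p = 2.6e-10) in slr-1 and 3.74 ± 0.24 (4.1e-11) in shy2-2.

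NUDT7, a nudix hydrolase that restrains immune responses, lies on chromosome 4 (7487225 to 7490127, plus strand). It held 35.1, 41.2 and 38.3 CPM at 0 h of DEX in slr-1, 251.9, 268.3 and 302.3 at 1 h and 158.6, 128.8 and 149.3 at 2 h. None of the 3 times overlapped. The rise was 2.87 ± 0.13 (log2, adjusted p = 7.9e-14) and the change from 1 h to 2 h -0.93 ± 0.13 (5.9e-05).

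AT5G41750 encodes an intracellular disease resistance protein of the TIR-NBS-LRR class (chromosome 5, 16693832 to 16699028, plus strand) and follows another member of that class, AT5G41740, on the same strand. Its DEX libraries in shy2-2 held 0.845, 1.10 and 1.19 CPM at 0 h, 70.6, 34.3 and 60.7 at 1 h and, at 2 h, 21.6, 22.5 and 20.1. The 3 times did not overlap. The rise was 5.71 ± 0.32 (log2, adjusted p = 6.0e-12) there and 5.18 ± 0.30 (2.9e-12) in slr-1. In all, 10 of 131 genes annotated with a TIR domain were members, a group formed after the members were known. Of the 106 of them tested in shy2-2, 56 rose and 6 fell in the first hour of DEX, and of 107 in slr-1, 48 rose and 9 fell.

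CBP60G (chromosome 5, 9475679 to 9478777, plus strand) encodes a calmodulin-binding activator of salicylic acid synthesis. It rose in the first hour of DEX by 4.08 ± 0.47 (log2, adjusted p = 4.5e-07) in shy2-2, from 1.49, 3.27 and 1.96 CPM to 55, 25.9 and 35.4. Its 6 h libraries, at 22.5, 13.7 and 22.6 CPM, lay below those of 1 h, and the change of -0.98 ± 0.40 (0.071) did not pass. WRKY31 was the single member of 72 WRKY factors. None of the listed 48 ERF and DREB factors, 100 NAC factors, 10 ZAT factors or 26 heat shock factors and small heat shock proteins was a member. That list of ERF and DREB factors leaves out 84 AP2-type factors without a symbol, a group formed after the members were known. Of these, 4 were members: AT1G44830, AT1G22810, AT2G44940 and AT5G52020. Tau-class glutathione transferases, which conjugate toxic compounds, gave 5 members of 29 genes, and 15 of 28 tested rose and 4 fell in each line. GSTU25 held its level through 2 h: in shy2-2 with DEX it had 196.4, 160.6 and 173.1 CPM at 1 h, 222.0, 184.6 and 185.7 at 2 h and, at 4 h, 69.3, 83.8 and 96.9.

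**Figure D3:**
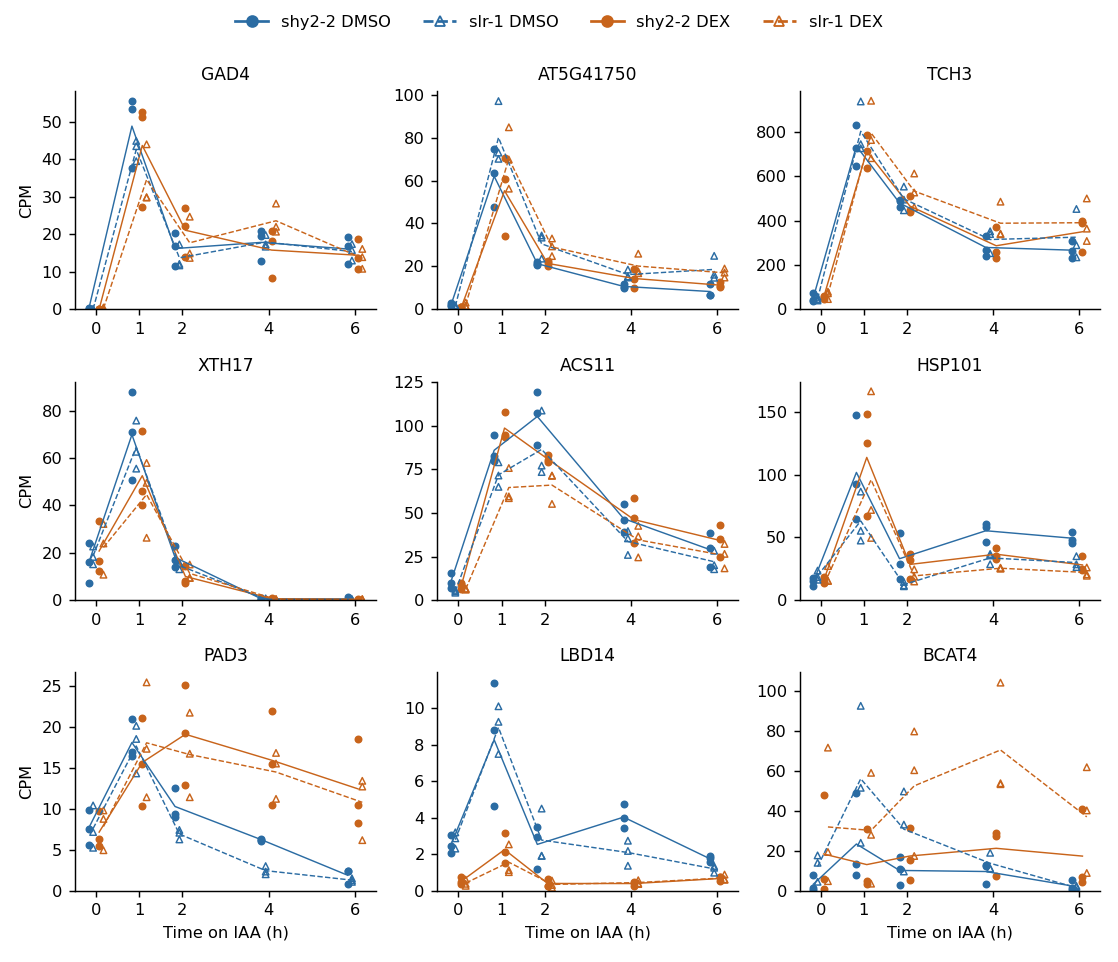
CPM of 9 members in each library against hours on IAA, with lines through the means of 3 libraries; filled circles and full lines are shy2-2, open triangles and broken lines slr-1, DMSO in blue and DEX in orange. XTH17 lies near 0 from 4 h on, HSP101 has a second, lower rise after 2 h, PAD3 stays up in DEX, LBD14 is low in every DEX group and BCAT4 varies widely within groups.

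The way back differed between members. For each gene the share of the first-hour rise still present later was taken from the log2(CPM + 1) group means. In DMSO the median share at 2 h was 64.9% in shy2-2 and 64.6% in slr-1, at 4 h 34.7% and 28.4%, and at 6 h 14.8% and 11.4%. The choice of genes fixed the rise these DMSO shares are taken from, and the 6 h level as well, so they and the counts that follow are a description. At 2 h, 132 members kept at least 50% of the rise in both lines and 49 kept less in both. By 6 h, 55 members were below their 0 h level in both lines of DMSO. In DEX the median shares were 70.3% and 72.4% at 2 h, 45.2% and 48.0% at 4 h. By 6 h they were 34.4% and 35.1%.

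**Figure D4:**
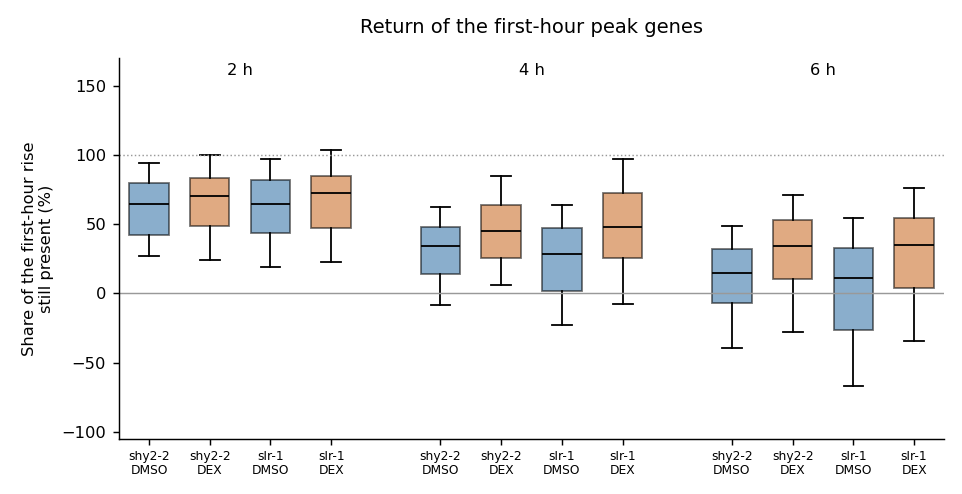
Share of the first-hour rise still present at 2, 4 and 6 h, in percent, for the members with a rise in that arm (200 in DMSO, 198 in DEX), by line and treatment. Boxes span the quartiles with the median as a line and whiskers reach from the 10th to the 90th percentile. The medians fall from 64.6 to 72.4% at 2 h to 11.4 to 35.1% at 6 h.

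Between 1 h and 2 h of DEX, 66 members fell in shy2-2 and 76 in slr-1, against 3.32% and 3.38% of all genes tested, with 55 in both lines (2.06% of genes). Between 2 h and 4 h of DMSO, whose libraries share a run within each line and were not used in the choice, 86 members fell in shy2-2 and 116 in slr-1. The shares of all genes tested were 4.55% and 12.8%, and 80 members fell in both lines against 4.10% of genes. The median changes of the members were -0.61 and -0.70 (log2). The smallest adjusted p among members in each line was that of AT3G44190, an oxidoreductase by annotation, which fell between 2 h and 4 h of DMSO by 1.15 ± 0.11 (adjusted p = 4.5e-07) in shy2-2 and 0.97 ± 0.08 (1.6e-08) in slr-1.

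In that interval 4 members rose in slr-1, where 13.3% of genes rose. These were HSP101, AT2G20560, AT5G04840 and ATPMEPCRB. HSP101 (chromosome 1, 27936508 to 27940369, minus strand) encodes a chaperone that dissolves protein aggregates after heat, and AT2G20560 a DnaJ-type co-chaperone. HSP101 held 47.5, 86.6 and 55.3 CPM at 1 h of DMSO in slr-1, 11.7, 14.4 and 11 at 2 h and 36.8, 35.6 and 28.6 at 4 h. Its 2 h libraries lay below all of 1 h, 4 h and also of 0 h (16.2, 18.4 and 23.5 CPM). The rise from 2 h to 4 h was 1.44 ± 0.32 (log2, adjusted p = 0.0022) in slr-1, and 0.74 ± 0.36 (0.20) in shy2-2. AT2G20560 gave 1.28 ± 0.36 (0.012) and 0.86 ± 0.40 (0.18). In slr-1, 2 of the 3 libraries at 2 h of DMSO, replicates 1 and 3, were among those high in photosynthetic RNA. The other, replicate 2, held 14.4 CPM of HSP101. The alternative fit without the libraries high in photosynthetic RNA rests on 1 library of that group, and the cause of the step was not tested.

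Members tied to light and the clock rose in roots as well. PRR9 (chromosome 2, 19232607 to 19235179, plus strand), a morning-phased repressor of the clock, was the one member among 11 clock genes. It held 20, 16.4 and 17.1 CPM at 0 h of DEX in slr-1, 52.0, 56.2 and 32.3 at 1 h and 8.12, 5.58 and 8.16 at 6 h. The 6 h libraries lay below all of 0 h. The rise was 1.43 ± 0.20 (log2, adjusted p = 7.4e-06) and the fall from 1 h 2.72 ± 0.21 (1.9e-09), while 5 of 11 clock genes rose and 1 fell in the first hour in shy2-2, and 6 rose and 3 fell in slr-1. Of 12 light-response genes, a group formed after the members were known, 5 were members (ELIP1, HYH, BBX29, BBX31 and SIGE), and 9 of 12 rose in each line. ELIP1, which protects chloroplasts from excess light, held 19, 12.5 and 15.8 CPM at 0 h of DEX in slr-1 and 189.9, 154.9 and 158.8 at 1 h, a rise of 3.43 ± 0.23 (3.8e-11). The 2 libraries of that 0 h group that were high in photosynthetic RNA, replicates 1 and 2, held 19 and 12.5 CPM of it.

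DEX and DMSO were also compared at the same time, at 2 h and at 4 h. At 2 h, 2 members were lower in DEX in shy2-2, against 0.329% of all genes, and 3 were lower in slr-1, against 1.15%. None was higher in shy2-2 by edgeR or DESeq2 (2 had an unadjusted p under 0.05 in edgeR), against 0.265% of genes, and 1 was higher in slr-1, against 0.421% of genes. At 4 h, 9 members (4.5%) were higher and 2 (1.0%) lower in DEX in shy2-2, against 2.47% and 8.38% of genes. In slr-1, 24 were higher and 3 lower, against 5.83% and 12%. The medians of the members were 0.13 and 0.23 (log2) at 4 h, against 0.01 and 0.04 for all genes. DEX and DMSO libraries of these times came from different runs in both lines, so run and treatment cannot be told apart. A difference in a part of the cells and a smaller difference in all of them also cannot be told apart in these bulk samples. At 1 h the DEX group mean lay below the DMSO mean for 143 members in shy2-2 and 167 in slr-1. Among all genes tested it did so for 11037 of 21902 in shy2-2 and 12582 of 21864 in slr-1. The median differences of the members were -0.09 and -0.17 on the log2(CPM + 1) scale. The choice of genes by a high DMSO value at 1 h bears on these member counts and medians.

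LBD14, of the LOB-domain family, some of whose genes act in lateral root formation, was the one member lower in DEX at both times in both lines, which 0.255% of genes were at 2 h and 7.54% at 4 h. It lies on chromosome 2 (13352917 to 13353672, plus strand). At 2 h its libraries held 2.95, 3.50 and 1.17 CPM in DMSO and 0.661, 0.271 and 0.273 in DEX in shy2-2, a difference of -2.69 ± 0.42 (log2, adjusted p = 0.00083). In slr-1 they held 4.50, 1.92 and 1.91 CPM and 0.313, 0.171 and 0.558, a difference of -3.00 ± 0.44 (0.00022). The groups did not overlap in either line. At 4 h the differences were -3.33 ± 0.42 (8.6e-06) and -2.26 ± 0.43 (0.00038).

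The peak of LBD14 was still called within DEX, at that lower level. Its libraries went from 0.746, 0.367 and 0.468 CPM at 0 h in shy2-2 to 3.14, 2.12 and 1.5 at 1 h and then to 0.661, 0.271 and 0.273 at 2 h. The rise was 2.15 ± 0.42 (log2, adjusted p = 0.00042) and the change from 1 h to 2 h -2.52 ± 0.42 (0.00055). In slr-1 the same steps were 1.82 ± 0.43 (0.0024) and -2.18 ± 0.44 (0.0030). Of 24 LBD genes tested, 12 rose and 1 fell in the first hour of DEX in shy2-2, and of 23 in slr-1, 11 rose and 1 fell.

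MYB108, a MYB factor of stress responses, was lower in DEX at 2 h in shy2-2, with 6.73, 6.97 and 4.74 CPM in DMSO and 2.67, 2.83 and 2.89 in DEX. The difference was -1.14 ± 0.26 (log2, adjusted p = 0.039), and in slr-1 it was -0.63 ± 0.19 (0.13). ZF14, a MATE-type transporter by annotation, was lower in slr-1 at 2 h, with a difference of -1.02 ± 0.23 (0.016).

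PAD3, a cytochrome P450 that makes the defence compound camalexin, was higher in DEX. It lies on chromosome 3 (9887917 to 9889791, plus strand). At 4 h its libraries held 6.37, 6.24 and 6.07 CPM in DMSO and 15.4, 21.9 and 10.4 in DEX in shy2-2. In slr-1 they held 3.01, 2.01 and 2.34 CPM in DMSO and 11.2, 15.5 and 16.8 in DEX. Neither line's groups overlapped, and the differences were 1.33 ± 0.35 (log2, adjusted p = 0.013) and 2.53 ± 0.33 (3.8e-06). PAD3 fell between 2 h and 4 h of DMSO in slr-1 by 1.5 ± 0.32 on the log2 scale (0.0016), and its changes from 1 h to 6 h of DEX were -0.33 ± 0.34 (0.50) and -0.77 ± 0.30 (0.058).

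PAD3, NUDT10 and AT3G28580 were the 3 members higher in DEX at 4 h in both lines, against 1.76% of genes. NUDT10, a relative of NUDT7, differed by 1.06 ± 0.30 (log2, adjusted p = 0.020) and 2.16 ± 0.38 (0.00018). AT3G28580 differed by 1.56 ± 0.43 (0.019) and 0.89 ± 0.21 (0.0031).

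The 22 members not called in the first hour of DEX in either line had the widest replicates. The median over members of the within-group SD, on the log2(CPM + 1) scale, was 0.78 for them, 0.35 for the 7 called in 1 line and 0.20 for the 171 called in both. A wide spread makes a call less likely, so this difference is a description. All 8 members of aliphatic glucosinolate synthesis were among the 22: BCAT4, IPMI1, IPMI2, IMD1, CYP79F2, CYP83A1, BAT5 and AT2G31790. These genes make sulfur-rich defence compounds from methionine, and the group of 23 was formed after the members were known. None of the 20 tested passed edgeR's test in either line at 1 h against 0 h of DEX, where 0 had an unadjusted p under 0.05. None passed at 6 h against 1 h either, where 0 in shy2-2 and 1 in slr-1 did. DESeq2 called none of the 8 members in these contrasts. The median change of the 20 tested genes at 1 h against 0 h of DEX was 0.26 (log2) in shy2-2 and 0.21 in slr-1.

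BCAT4 (chromosome 3, 6846969 to 6849582, minus strand) encodes the aminotransferase that opens that pathway. In shy2-2 with DMSO, the values that chose it were 0.564, 7.86 and 1.38 CPM at 0 h and 48.9, 13.3 and 7.98 at 1 h. In DEX of the same line the libraries held 48.0, 6.10 and 1.11 CPM at 0 h and 4.94, 3.35 and 31.0 at 1 h, which overlap widely. The fitted change was -0.48 ± 1.19 (log2, adjusted p = 0.81) there and -0.04 ± 0.90 (0.99) in slr-1. Over the 20 groups, its highest library stood between 1.7 and 43.4 times above its lowest, with a median of 6.23. All 8 glucosinolate members were highest in the same library of a group in 16 of the 20 groups and lowest in the same library in 17. For these members the condition on the DMSO means was met, and the same change was not detectable in DEX against the spread between replicates.

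Of the other members not called in DEX, APR1 shares sulfur with that pathway: it reduces sulfate and was 1 of 6 members among 22 genes of sulfate uptake and assimilation (a group also formed after the members were known), with APR2, APR3, SULTR1;3, SERAT2;1 and LSU2. APR1 held 38.7, 15.2 and 11.8 CPM at 0 h of DEX in shy2-2 and 32.1, 39.7 and 153.6 at 1 h, a change of 1.78 ± 0.79 (log2, adjusted p = 0.10). APR2 and APR3 fell between 2 h and 4 h of DMSO in both lines, APR3 by 2.68 ± 0.39 (0.0001) in shy2-2 and 2.42 ± 0.41 (0.00019) in slr-1. JAZ10, a repressor of jasmonate responses and the one member among 28 jasmonate genes, changed by 0.78 ± 0.37 (0.13) in shy2-2 and 0.57 ± 0.47 (0.47) in slr-1 in the first hour of DEX. CYP81F4, an enzyme of indole glucosinolates and the member with the highest line-mean CPM at 1 h of DMSO (PEN3 was higher in slr-1), also passed in neither line.

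In the genome, 20 of the members stood in 10 pairs of direct neighbours, 8 of them on the same strand, such as XTH18 with XTH19, GSTU6 with GSTU5, bHLH38 with bHLH39, and FLOT1 with AT5G25260. Several pairs are close copies whose reads may be split or lost. Exons were counted in the transcript of each gene with the most of them. The median was 3 in the 199 protein-coding members and 5 in the 20710 protein-coding genes tested in both lines. A single exon was found in 21.1% of members (42) and 14.7% of those genes. Median lengths of the longest transcript were similar, at 1657 and 1714 bases.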

How the data were processed

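Per the submitters' processing notes, reads were handled with STAR 2.5.2b, TAIR10 and DESeq2. The deposited files give raw counts per gene in 3 columns (unstranded and each strand). The stranded column 4 was used. It carried 93.6 to 96.4% of counts on the 2 strands. Left out were rows without a gene, with 5.58 to 11.89% of all counts. The labels number replicates 1 to 3 without saying that they came from separate cultures, so the p-values rest on a spread that may be technical only. No 2 libraries of a group were duplicates (lowest chi-square per degree of freedom 14.91).

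Members, gene lists, tests and alternatives were chosen with earlier results of these data known. Of the gene groups, 23 are families, pathways or tissue markers and 13 were formed once the members were known, as the text says. Each line (30 libraries, 10 groups) was fitted in edgeR 4.0.16 with filterByExpr, TMM factors and the robust quasi-likelihood test, and both lines together for their difference. Tested were 21902, 21864 and 22268 genes, with Benjamini-Hochberg adjustment over all of them and a threshold of 0.05. ± is the SE of a log2 fold change unless SD is stated, with n = 3 libraries per group. Contrasts fixed by the choice of members were not tested. Genes named were the steepest and most abundant members, up to 4 per list, up to 5 called per contrast and direction by adjusted p, and those at the thresholds; NUDT10, HSP101, AT2G20560, AT5G04840, ATPMEPCRB, ELIP1, APR1 to APR3 and the glucosinolate and other group members named outside that rule were chosen after their values were seen. The fits recovered known changes in data simulated from these counts. The simulation gave all genes of a line the same spread, so it does not cover members with wider replicates. Positions, exons and upstream sequence are RefSeq's TAIR10.1, matched by locus for 32548 genes. Alternatives were TMM-scaled CPM, other pseudocounts, folds and minimum levels, unstranded counts, DESeq2 1.42.0, other size factors, no filter, compared groups alone, the 7 libraries high in photosynthetic RNA left out, a replicate block and each library left out.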

Additional observations from a re-analysis of the deposited data

How the results depend on the processing

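Of 204 genes that met the conditions for membership, 114 met them with a pseudocount of 5 and 61 with a fold of log2 1.5, while leaving out 1 library at a time gave 181 to 221. The member counts at 1 h, 2 h and 6 h within DEX and between 2 h and 4 h of DMSO stayed within 1.5 times of those reported under every alternative run, and no direction reversed. Leaving out 1 library gave 170 to 181 (shy2-2) and 166 to 170 (slr-1) members higher at 1 h of DEX, 155 to 165 and 149 to 157 lower at 6 h, 45 to 66 and 59 to 77 lower at 2 h, and 66 to 82 and 94 to 113 lower between 2 h and 4 h of DMSO.

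The counts of members that differed between DEX and DMSO depended on the setting. Lower at 2 h in shy2-2 were 2, with 0 from the compared groups alone, 1 without the libraries high in photosynthetic RNA and 1 to 2 with a library left out. Lower at 2 h in slr-1 were 3, with 5 by DESeq2, 1 from the compared groups alone and 1 to 4 with a library left out. Higher at 2 h in slr-1 was 1, with 0 from the compared groups, 0 without the libraries high in photosynthetic RNA and 0 to 1 with a library left out. Higher at 4 h in shy2-2 were 9, with 15 by DESeq2, 4 from the compared groups and 4 to 12 with a library left out. The low values came without DEX replicate 1 or DMSO replicates 2 or 3 of 4 h. Lower at 4 h in shy2-2 were 2, with 4 by DESeq2, 4 from the compared groups and 1 without the libraries high in photosynthetic RNA. Higher at 4 h in slr-1 were 24, with 12 to 23 when a library was left out, the lowest without DMSO replicate 3 and 15 without DEX replicate 2. Lower at 4 h in slr-1 were 3, with 5 from the compared groups. The cause was not tested. Over the named members, 1562 alternative results kept their direction and side of the threshold, 75 no longer passed, 7 newly passed and none reversed.

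A replicate block moved no count by more than 1.5 times: higher at 1 h of DEX were 179 and 173, lower at 6 h 167 and 160. Deviations of same-numbered samples of different groups had a median correlation of 0.02 in each line, against -0.01 for other numbers. Single pairs ran from -0.73 to 0.70 in shy2-2 and from -0.66 to 0.64 in slr-1. The numbers were therefore not used to pair samples in the main fits.

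Of the 200 members, 137 met the conditions in all 18 settings that left out a library of the choice, and the fewest for any member was 13. Of the 8 glucosinolate members, 5 met them in all 18. Depth limits the folds of genes near 0 at 0 h, such as GAD4 and IAA6.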
